A study of Mus musculus with 6 samples.

Results

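Mitochondrial ribosomal proteins are described here through the mRNAs that encode them, as measured in parental 22Rv1 cells and in a subline resistant to BL-B01D1. The members were all protein-coding genes whose symbol starts with MRPL or MRPS followed by a digit, a rule that uses names and no measured value. It took in 78 of the 58735 genes in the table, of which 49 carry an MRPL symbol (named for the large ribosomal subunit) and 29 an MRPS symbol (named for the small subunit). A total of 77 members had enough counts to be tested, and the exception was MRPS24.

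22Rv1 cells are an established line from a human prostate carcinoma. BL-B01D1 is an antibody-drug conjugate that binds EGFR and HER3 and carries Ed-04, a topoisomerase I inhibitor. RNA-Seq libraries were made from 3 samples of parental cells given vehicle and from 3 samples of the 22Rv1 BL-B01D1_R subline, which was grown under rising concentrations of the conjugate. The resistant arm is a single selected subline, and no source states that the 3 samples of an arm were grown as separate cultures, so the p-values measure the spread between these samples, which may be technical.

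The mitochondrial ribosome is the machine inside mitochondria that translates the few mRNAs made from the mitochondrial genome, all of which encode subunits of the respiratory chain and ATP synthase. Its RNAs come from the mitochondrial genome, whereas its proteins are encoded in the nucleus, made in the cytosol and imported. Part of these proteins have a counterpart in bacterial ribosomes, and the others were added during the evolution of mitochondria.

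Total counts ranged from 13821639 to 17251491 per library, so that 3 counts corresponded to 0.174 to 0.216 CPM (counts scaled to a library total of 1000000). ABCG2, the efflux transporter that the study followed in its resistant subline, was at 4.12 ± 0.74 CPM in the parental and 438 ± 4.96 CPM in the resistant libraries (SD, n = 3), which separates the libraries as labelled. The summed level of 8 prostate luminal markers was 2803 to 2852 CPM in parental and 2893 to 2954 CPM in resistant libraries, and at an adjusted p under 0.05 in edgeR's test 4 of the 8 rose and 3 fell, with log2 fold changes from −0.48 (HOXB13) to 0.91 (KLK3). That of 7 markers of blood, fibroblast and endothelial cells was 15.5 to 17.9 CPM in parental and 13.6 to 14.3 CPM in resistant libraries, most of it COL1A1, while PTPRC, CD68, PECAM1 and VWF had too few counts to be tested. Both sums separated the arms, and their part in the results was not tested. In bulk RNA, fewer cells with a transcript and less of it per cell cannot be told apart.

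The mitochondrial ribosomal protein mRNAs differed little between resistant and parental cells. At a false discovery rate (FDR, the Benjamini-Hochberg adjusted p of edgeR's quasi-likelihood test over all 17142 genes tested) under 0.05, 18 of 77 members passed, or 23.4%, where 35.5% of all genes tested did. Of these members 13 were higher in resistant cells and 5 were lower, while among all genes tested 17.1% were higher and 18.4% lower. The largest changes among members that passed were a rise of 26.1% in mean level for MRPS28 and a fall of 16.3% for MRPL2. None of the 77 members passed the study's own thresholds, an FDR under 0.05 with an absolute log2 fold change over 1, against 5.37% of all genes tested. The count by that rule was also 0 with limma-voom and with DESeq2. At any size of change, 29 members had an unadjusted p under 0.05 in edgeR's test. The share of all genes at that unadjusted p is not given here, so this count has no background beside it.

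The log2 fold changes (resistant minus parental) ran from −0.26 to 0.33 with a median of 0.04, an interquartile range of −0.06 to 0.11 and an SD of 0.13. Across all genes tested the median was 0.00 and the SD 0.52. Protein-coding genes within the members' range of mean CPM, 10445 in number, had an SD of 0.39, and 41.0% of them passed the FDR threshold. In 46 members the estimate was above 0 and in 31 below. The spread among members was thus narrow in both directions, with no member beyond an absolute log2 fold change of 0.5, which 1044 of those coding genes exceeded.

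The intervals put limits on what the libraries could have missed. The 95% interval of every one of the 77 members tested lay within −1 and 1 on the log2 scale, and in 75 it lay within −0.5 and 0.5. MRPL38 had the highest upper bound, 0.69 or 1.61-fold, and MRPL2 the lowest lower bound, −0.41 or 0.754-fold. Among coding genes of the same range of CPM, 95.1% had an interval within −1 and 1. The replicates were close, with a median coefficient of variation within groups of 3.44% for the members and 4.74% for those coding genes.

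**Figure D1:**
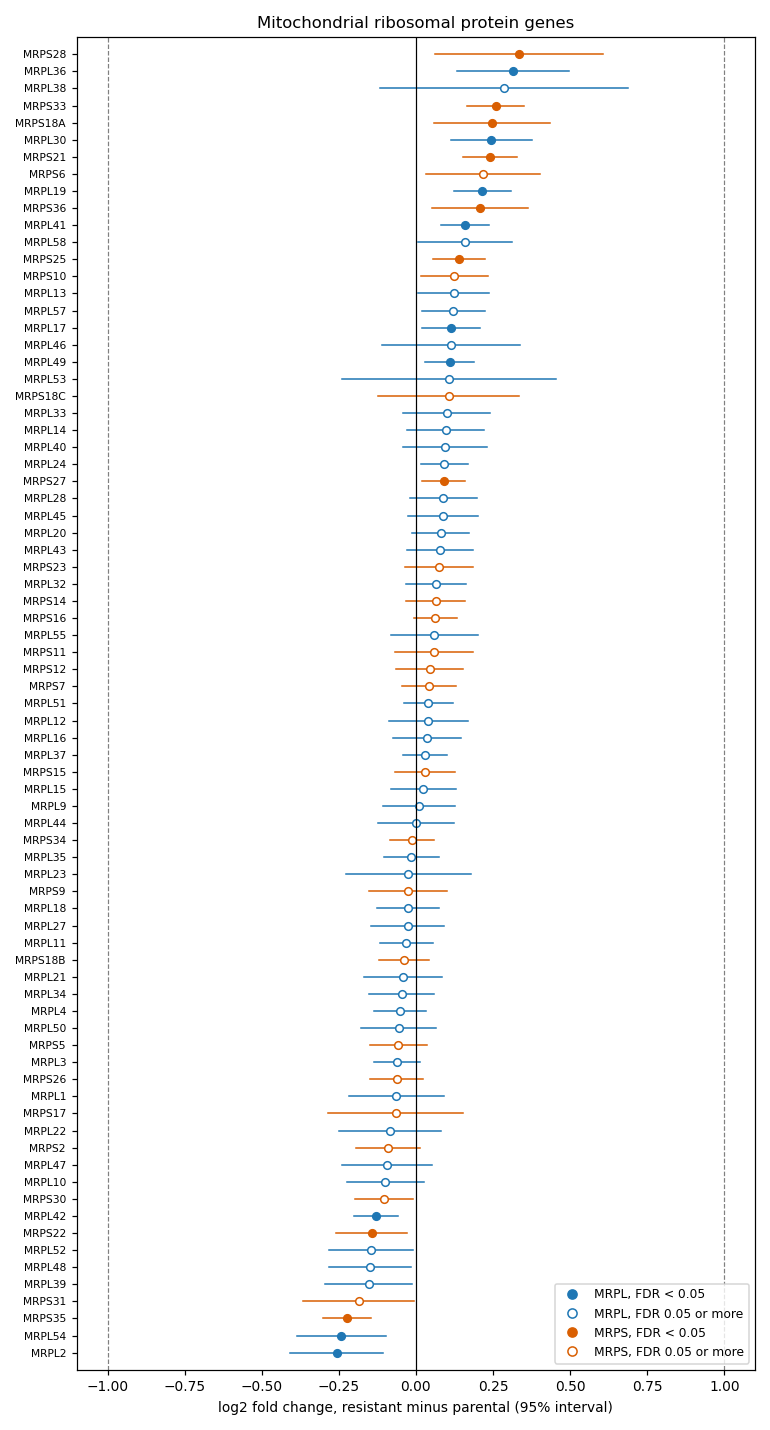
Log2 fold change (resistant minus parental, horizontal axis) with its 95% interval for each of the 77 members tested, sorted by value, in blue for MRPL and orange for MRPS genes. Filled points passed an FDR of 0.05, the dashed lines mark −1 and 1, and all intervals lie between them.

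**Figure D2:**
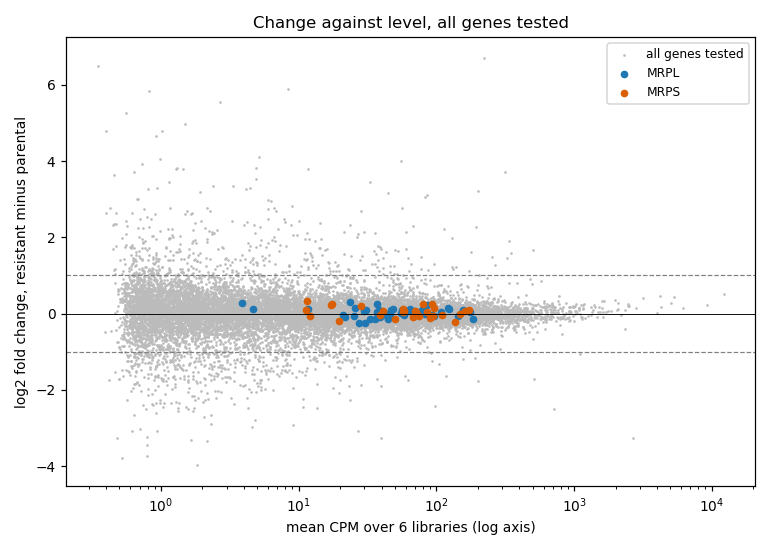
Log2 fold change (resistant minus parental) against mean CPM over 6 libraries on a log axis for all 17142 genes tested (grey) and for the MRPL (blue) and MRPS (orange) genes. The members form a narrow band around 0 between −0.26 and 0.33.

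The plot of change against level shows where the members lie within the transcriptome. Their mean level ranged from 3.89 CPM for MRPL38 to 186 CPM for MRPL42, with a median of 57.0 CPM. In the upper part of the members by CPM, 10 of 39 passed the FDR threshold with a median standard error of 0.0451 on the log2 scale. In the lower part, 8 of 38 passed and the median standard error was 0.0698, so smaller changes could be called in the more abundant members.

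By name, 9 of 49 MRPL genes passed, 6 higher and 3 lower, with a median log2 fold change of 0.03. Of the 28 MRPS genes tested 9 passed, 7 higher and 2 lower, and the median was 0.05. The shares, 18.4% and 32.1%, stand beside 35.5% of all genes tested, and the difference between them was not tested. Names and structure do not fully match: in structures of the human mitochondrial ribosome MRPS30 and MRPS18A sit in the large subunit, and MRPS36 is now described as a subunit of the 2-oxoglutarate dehydrogenase complex. Counted by structure, 10 of 51 large-subunit members (19.6%) and 7 of 25 small-subunit members (28.0%) passed.

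Large-subunit members that rose include both proteins with bacterial relatives and mitochondria-specific ones. MRPL19 (chr2:75646783-75690851 on hg38), the counterpart of bacterial L19, was at 84.5, 76.0 and 78.7 CPM in parental and 89.1, 92.9 and 96.1 CPM in resistant libraries. Its log2 fold change was 0.22 (SE 0.046, FDR 2.33e-04). All of its resistant libraries were above all parental ones.

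MRPL30 (chr2:99181079-99197626), the counterpart of bacterial L30, had 34.9, 35.0 and 31.9 CPM in parental and 39.8, 39.9 and 41.2 CPM in resistant libraries. It rose by 0.24 (SE 0.065, FDR 0.00246), and the groups did not overlap. MRPL41 (chr9:137551199-137552555), a mitochondria-specific protein, was at 115, 117 and 112 CPM against 126, 125 and 133 CPM. Its log2 fold change was 0.16 (SE 0.039, FDR 0.00113), again with all resistant libraries higher.

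MRPL36 (chr5:1798386-1801366), the counterpart of the small zinc-binding bacterial protein L36, had 23.8, 22.3 and 16.4 CPM in parental and 25.9, 26.7 and 25.9 CPM in resistant libraries. The log2 fold change was 0.31 (SE 0.090, FDR 0.00528) and the groups did not overlap. Parental replicate 3 was the lowest library by a wide margin. Without it the change was 0.18 with an FDR of 0.0998.

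The large-subunit members that fell were MRPL2, MRPL54 and MRPL42. MRPL2 (chr6:43054029-43059806) is the counterpart of bacterial L2, a protein near the catalytic centre of the ribosome, and had 30.6, 29.2 and 29.5 CPM in parental against 26.6, 23.2 and 24.8 CPM in resistant libraries. Its log2 fold change was −0.26 (SE 0.074, FDR 0.00556). The resistant libraries were all below the parental ones.

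MRPL54 (chr19:3762664-3768575), a mitochondria-specific protein, was at 34.7, 31.7 and 32.3 CPM in parental and 27.7, 29.4 and 26.4 CPM in resistant libraries, with a log2 fold change of −0.24 (SE 0.071, FDR 0.00663). MRPL42 (chr12:93467488-93516213), also mitochondria-specific, had 203, 194 and 185 CPM against 177, 179 and 176 CPM, with a log2 fold change of −0.13 (SE 0.035, FDR 0.00292). In both genes the groups were apart.

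In the small subunit, the clearest rises were those of MRPS33 and MRPS21. MRPS33 (chr7:141002610-141015228), a mitochondria-specific protein of the head, the upper lobe of the subunit, had 72.2, 71.8 and 75.9 CPM in parental and 88.3, 88.4 and 86.0 CPM in resistant libraries. It rose by 0.26 (SE 0.045, FDR 1.11e-05). MRPS21 (chr1:150293720-150308979), the counterpart of bacterial S21, had 87.5, 81.0 and 87.0 CPM against 101, 102 and 99.2 CPM and a log2 fold change of 0.24 (SE 0.043, FDR 1.80e-05). The lowest resistant library was above the highest parental one in both.

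MRPS25 (chr3:15042460-15065335), a mitochondria-specific protein, was at 93.6, 91.0 and 89.0 CPM in parental and 101, 103 and 98.3 CPM in resistant libraries, with a log2 fold change of 0.14 (SE 0.042, FDR 0.00712). MRPS35 (chr12:27710773-27756295), like MRPS33 a mitochondria-specific protein of the head, moved the other way. It had 156, 145 and 143 CPM in parental and 126, 127 and 128 CPM in resistant libraries, a log2 fold change of −0.22 (SE 0.038, FDR 7.69e-06). Of the 7 head proteins tested, MRPS33 rose, MRPS35 fell and 5 did not pass. The share that passed, 28.6%, stands beside 35.5% of all genes tested.

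Several small-subunit calls were weaker. MRPS28 (chr8:79918717-80030289), the counterpart of bacterial S1, had the highest fold change of the members, 0.33 (SE 0.134, FDR 0.0487), from 8.53, 12.1 and 9.65 CPM in parental and 12.1, 10.1 and 16.02 CPM in resistant libraries. Its groups overlapped. Without resistant replicate 3 its log2 fold change was 0.13 with an FDR of 0.523, and it passed in only 2 of the 6 fits that left out 1 library.

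MRPS22 (chr3:139005806-139357223), a mitochondria-specific protein, had 51.6, 54.0 and 50.8 CPM in parental and 44.8, 48.3 and 48.7 CPM in resistant libraries. Its log2 fold change was −0.14 (SE 0.057, FDR 0.0476), the groups were apart, and it passed in 1 of the 6 fits. Without resistant replicate 1 the FDR was 0.248 and without parental replicate 2 it was 0.175. The losses without parental replicates 1 and 3 and resistant replicate 2 lay at FDRs of 0.0508 to 0.0704.

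MRPS18A and MRPS36 carry small-subunit names without sitting there. MRPS18A (chr6:43671303-43687791) had 14.6, 16.2 and 17.2 CPM in parental and 19.9, 19.5 and 17.3 CPM in resistant libraries, groups that were only just apart, with a log2 fold change of 0.25 (SE 0.093, FDR 0.0348). Its relatives MRPS18B and MRPS18C, both proteins of the small subunit, had log2 fold changes of −0.04 (FDR 0.481) and 0.11 (FDR 0.516). MRPS36 (chr5:69217760-69230129) had 26.1, 25.7 and 27.4 CPM against 31.4, 26.9 and 33.0 CPM and a log2 fold change of 0.21 (SE 0.077, FDR 0.0306), with resistant replicate 2 inside the parental range.

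Each of these genes passed in 2 of the 6 fits that left out 1 library. For MRPS18A the FDR was 0.181 without parental replicate 1, 0.0594 without parental replicate 2, 0.143 without resistant replicate 1 and 0.107 without resistant replicate 2. For MRPS36 it was 0.0638 and 0.103 without parental replicates 1 and 2, 0.108 without resistant replicate 1 and 0.198 without resistant replicate 3. MRPS30, the other large-subunit protein with an MRPS name, had a log2 fold change of −0.10 (FDR 0.0784).

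The remaining calls were MRPS27, MRPL49 and MRPL17, named here after their values were seen since they fall outside the limit of 10 named rises. Their log2 fold changes were 0.09 (FDR 0.0361), 0.11 (FDR 0.0266) and 0.11 (FDR 0.0495), and each passed in 2 of the 6 fits that left out 1 library. Altogether 10 of the 18 members kept an FDR under 0.05 in every one of those 6 fits and under all 9 alternative settings. These were MRPS33, MRPL30, MRPS21, MRPL19, MRPL41 and MRPS25 among the higher, and MRPL2, MRPL54, MRPS35 and MRPL42 among the lower. The count of higher members was 8 without resistant replicate 3, against 13 with all libraries. In the fit without that library 19.5% of members and 30.4% of all genes tested passed in either direction.

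**Figure D3:**
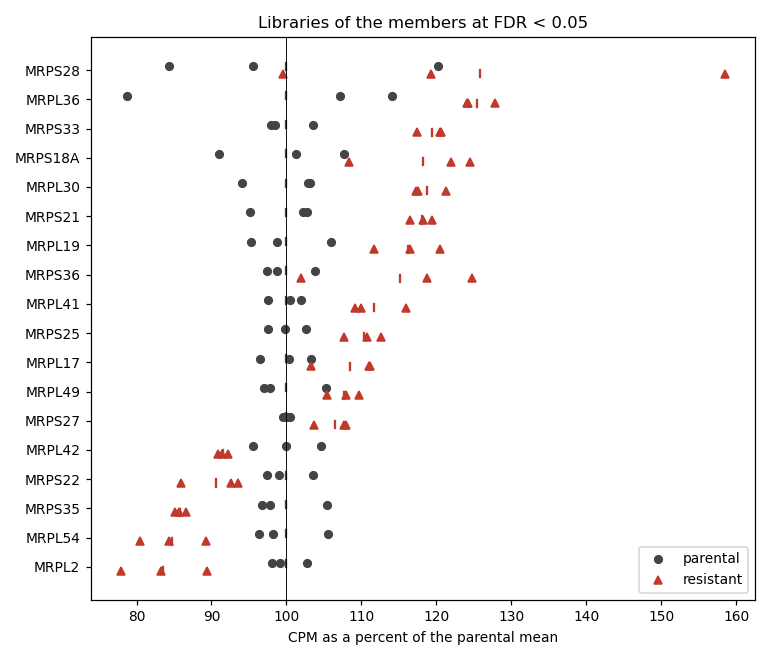
CPM of the 18 members at an FDR under 0.05 in each library, as a percent of the gene's parental mean, with circles for parental and triangles for resistant libraries and a short bar at each group's mean. In 16 genes the groups do not overlap, and the libraries of MRPS28 and MRPS36 do.

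As a count of libraries, 34 of the 77 members had groups that did not overlap, 24 higher and 10 lower in resistant cells. Over all genes tested the share was 44.8%, with 22.1% higher and 22.8% lower. The plot of libraries shows this for the 18 members that passed the test, of which 11 were apart on the higher and 5 on the lower side. Because the test used these same libraries, that count is no further support for the calls. An exact two-sided permutation test of 3 against 3 libraries cannot go below p = 0.1 for a single gene.

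Groups by place in the large subunit hold 3 to 8 members each, too few to set their counts firmly against the 35.5% of all genes tested. None of the 3 proteins of the stalk, the flexible arm that recruits translation factors (MRPL10, MRPL11 and MRPL12), passed in edgeR's test, limma-voom or DESeq2, and none had an unadjusted p under 0.05. Of the 8 proteins around the exit of the peptide tunnel only MRPL17 passed. None of the 6 proteins of the central protuberance, which bridges to the small subunit, passed with any of the 3 tools, and 1 of them had an unadjusted p under 0.05 in edgeR's test.

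Members with a bacterial counterpart passed in 7 of 44 cases (15.9%), with 6 higher and 1 lower. Mitochondria-specific members, leaving out MRPL55 and MRPS36, passed in 10 of 31 cases (32.3%), with 6 higher and 4 lower. The median log2 fold change was 0.04 in both groups. Both shares lay below the 35.5% of all genes tested, the second close to it, and the difference between the groups was not tested.

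The levels of the members were then compared per length, as FPKM, which is CPM divided by the gene length of the table in kilobases. The median over the 77 tested members was 20.4 FPKM, the interquartile range 12.8 to 32.9 and the whole range 1.06 to 136, a 128-fold span. A total of 49 members lay within 2-fold of the median. Although the proteins are present in mostly equal numbers in an assembled ribosome, their mRNA levels on this scale were not equal.

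The highest levels were those of MRPS34 (136 FPKM), MRPL41 (96.2), MRPL24 (92.6), MRPS26 (84.6) and MRPS35 (69.4). MRPS34 and MRPS26 are mitochondria-specific proteins of the small subunit, and MRPL24 is the counterpart of a bacterial protein at the tunnel exit. MRPS34 was at 148, 153 and 149 CPM in parental and 148, 151 and 147 CPM in resistant libraries, with a log2 fold change of −0.01 (95% interval −0.09 to 0.06). MRPL24 had a log2 fold change of 0.09 (FDR 0.0559) and MRPS26 of −0.06 (FDR 0.265), and in all of these the groups overlapped.

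The lowest levels were those of MRPS24 (0.0877 FPKM), MRPL38 (1.06), MRPL46 (1.83), MRPS18C (2.33) and MRPL53 (3.49). MRPL38, MRPL46 and MRPL53 each lie almost wholly under another coding gene annotated on the same strand, which covers 100%, 99.7% and 97.9% of them. MRPS18C is overlapped over 74.0% of its length by ABRAXAS1 on the opposite strand. The 13 members overlapped to any extent by a coding gene on their own strand had a median of 6.28 FPKM, and the other 65 a median of 24.2. That overlap ran from 0.519% of the member's span (MRPS16) to 100%. How reads in shared stretches were assigned was not given in the sources used here, and the part of overlap in these low levels was not tested.

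For the members of low level the intervals were wide. MRPL38, with 3.02, 3.10 and 4.47 CPM in parental and 4.83, 4.42 and 3.51 CPM in resistant libraries, had a log2 fold change of 0.28 (95% interval −0.12 to 0.69, FDR 0.284). MRPL46 had a log2 fold change of 0.11 (FDR 0.467) and MRPL53 of 0.11 (FDR 0.675). MRPS24 held 6, 7 and 3 counts in parental and 1, 4 and 1 counts in resistant libraries and was not tested. The read-through gene URGCP-MRPS24, which spans all of MRPS24 on the same strand, had 0 counts in all 6 libraries. By counting error alone that allows up to 0.216 CPM in the shallowest. Since the assignment of shared reads was not given, the counts of these 2 genes set no upper limit on their levels.

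MRPL42 shows why levels between genes need the length. It had the highest CPM of the members, 186, but a gene length of 16393 bases in the table gave it 11.3 FPKM, under the members' median. Its place among the members depends on that length, while its fall in resistant cells does not.

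**Figure D4:**
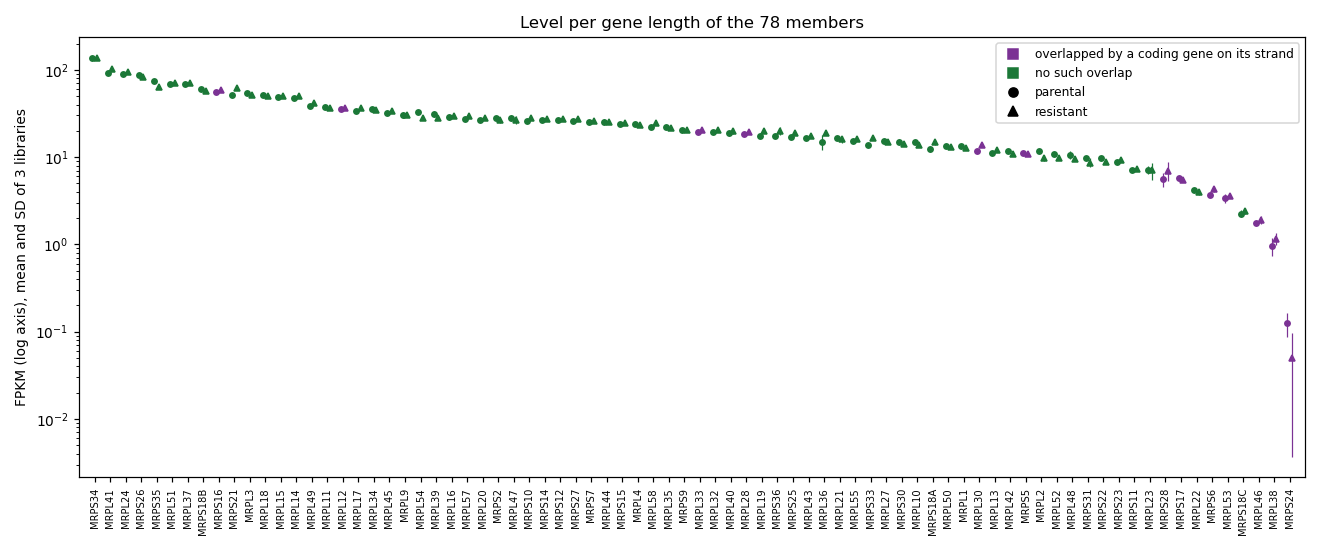
Level of the 78 members in FPKM on a log axis, sorted by mean, as mean ± SD of 3 libraries with circles for parental and triangles for resistant cells. Purple marks members overlapped to any extent by a coding gene on their own strand, which sit mostly on the low side (median 6.28 against 24.2 FPKM). The parental and resistant points of a tested gene lie close together. Those of MRPS24, which was not tested, lie further apart (0.125 and 0.0502 FPKM).

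Some members that passed overlap a coding gene on the other strand, and the strand setting of the counting was not given in the sources used here. MRPL2 lies wholly within the span of KLC4, whose log2 fold change was −0.20 (FDR 0.225). MRPL19 shares 88.2% of its span with GCFC2, which rose by 0.37 (FDR 5.96e-07), and MRPS25 shares 48.7% with NR2C2, which rose by 0.14 (FDR 0.00509). MRPL49 lies within the span of SYVN1, which fell (log2 fold change −0.26, FDR 2.44e-05) while MRPL49 rose. On their own strand, MRPL30 lies within the span of AC079447.1 (0.751 CPM, log2 fold change −0.79, FDR 0.156) and shares 85.9% with AC092587.1. MRPS28 shares 99.9% of its span with AC036214.3, also on its own strand, which had 0 CPM. The part of overlap on either strand in these results was not tested.

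Copies of the members in the genome took few reads. The table lists 75 pseudogenes with MRPL or MRPS symbols, of which 20 had any counts. Their 1006 counts over 6 libraries made up 0.213% of the 472881 counts on members. The largest was MRPL45P2 with 546 counts, 10.2% of those on MRPL45. Of the 4 pseudogenes that could be tested none passed the FDR threshold in edgeR's test.

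As a whole, the members took about the same part of the library in both arms. They held 0.494%, 0.494% and 0.491% of all counts in parental and 0.490%, 0.496% and 0.502% in resistant libraries, or 0.493 ± 0.0014% and 0.496 ± 0.0057% (SD, n = 3), and the groups overlapped. MRPL genes held 0.297% and 0.299% and MRPS genes 0.196% and 0.198%. The ratio of MRPL to MRPS counts was 1.51 ± 0.011 in parental and 1.51 ± 0.0010 in resistant cells.

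The denominator matters for that share. Transcripts of the 13 mitochondrial mRNAs took 3.51 ± 0.0056% of counts in parental and 4.53 ± 0.134% in resistant libraries. As a share of counts on protein-coding genes outside the mitochondrial chromosome, members held 0.527 ± 0.0014% in parental and 0.538 ± 0.0055% in resistant libraries. On that base the parental libraries lay between 0.526% and 0.528% and the resistant ones between 0.532% and 0.543%, without overlap.

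Proteins of the same ribosome that carry other names moved in both directions. Of these 5 genes 2 passed (40%), too few to set firmly against the 35.5% of all genes tested. DAP3, a GTP-binding protein of the small subunit, was at 71.0, 70.9 and 70.2 CPM in parental and 82.0, 77.8 and 82.5 CPM in resistant libraries and rose by 0.19 (FDR 8.46e-04). GADD45GIP1, a large-subunit protein, was at 71.1, 67.9 and 66.5 CPM against 63.9, 62.7 and 60.5 CPM, with a log2 fold change of −0.14 (FDR 0.0286). PTCD3 (−0.03), AURKAIP1 (−0.07) and CHCHD1 (0.03) did not pass. The call for GADD45GIP1 was lost without parental replicate 1 (FDR 0.129), resistant replicate 2 (0.0647) or resistant replicate 3 (0.125).

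Factors that build the mitochondrial ribosome and modify its RNA passed in 6 of 27 cases (22.2%), all higher, where 35.5% of all genes tested passed and 17.1% were higher. MTERF4, which takes part in assembly of the large subunit, was at 90.1, 88.7 and 91.9 CPM in parental and 126, 118 and 124 CPM in resistant libraries, a log2 fold change of 0.45 (FDR 5.09e-12). MRM1, a methyltransferase for the large ribosomal RNA, rose by 0.31 (FDR 0.0100) and the GTPase GTPBP10 by 0.26 (FDR 2.57e-05). The groups were apart in all 3. No gene of this list was lower by edgeR, limma-voom or DESeq2, and none was lower at an unadjusted p under 0.05. Over these 27 genes the median log2 fold change was 0.06.

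Mitochondrial translation factors passed in 4 of 15 cases (26.7%), all higher, against the same 35.5% and 17.1% of all genes tested. GFM1, the elongation factor that moves the ribosome along the mRNA, was at 87.5, 83.0 and 85.6 CPM in parental and 107, 109 and 108 CPM in resistant libraries, a log2 fold change of 0.33 (FDR 1.31e-08). GFM2 and MRRF, which act in recycling of the ribosome, rose by 0.14 (FDR 0.0215) and 0.14 (FDR 0.00663). TUFM, which delivers aminoacyl-tRNA, rose by 0.10 (FDR 0.00535). None was lower in any of the 3 tools or at an unadjusted p under 0.05, and the count of higher genes was 2 without parental replicate 2, where GFM2 had an FDR of 0.0542 and MRRF of 0.0516.

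Of 15 genes for mitochondrial transcription and RNA handling 2 passed (13.3%), where 35.5% of all genes tested did. The transcription terminator homologue MTERF1 rose by 0.22 (FDR 0.0319) and the transcription factor TFB2M had a log2 fold change of −0.14 (FDR 0.0395). Both calls were weak. MTERF1 lost its call without parental replicate 1 (FDR 0.0700), parental replicate 2 (0.138) or resistant replicate 1 (0.164). TFB2M lost it without parental replicate 1 (FDR 0.158), resistant replicate 2 (0.237) or resistant replicate 3 (0.102).

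The ribosomal RNAs around which the members assemble were counted as well, with the limit that the libraries were selected for poly-A tails. MT-RNR2, the large ribosomal RNA, was at 5870, 5790 and 5986 CPM in parental and 6462, 6612 and 6396 CPM in resistant libraries, a log2 fold change of 0.14 (SE 0.020, FDR 1.22e-07). MT-RNR1, the small ribosomal RNA, was at 825, 830 and 868 CPM against 776, 798 and 816 CPM, with a log2 fold change of −0.08 (SE 0.026, FDR 0.0160). The 2 RNAs thus moved apart, and their ratio was 6.997 ± 0.109 in parental and 8.149 ± 0.267 in resistant cells. The call for MT-RNR1 was lost without parental replicate 3 (FDR 0.124), resistant replicate 1 (0.137) or resistant replicate 2 (0.0533).

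**Figure D5:**
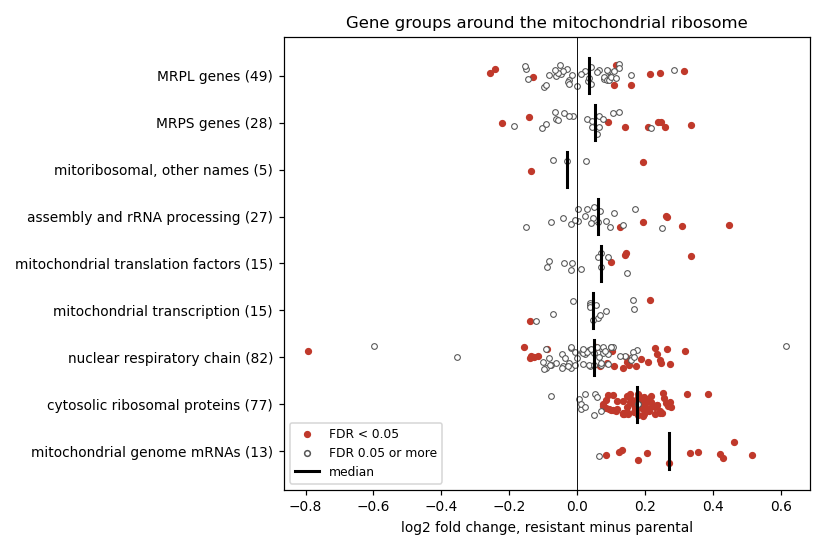
Log2 fold change (resistant minus parental, horizontal axis) of each tested gene in 9 groups, with the number of genes in brackets, filled red where the FDR was under 0.05 and with a black bar at the median. MRPL and MRPS genes centre near 0 (0.03 and 0.05), cytosolic ribosomal proteins at 0.18 and mitochondrial genome mRNAs at 0.27.

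The plot of gene groups sets the members beside the genes closest to them in function. Proteins of the cytosolic ribosome, which translates mRNAs of the nucleus, were higher in 66 of 77 cases and lower in none, with a median log2 fold change of 0.18. None of them was lower with limma-voom or DESeq2 or at an unadjusted p under 0.05. The 77 mitochondrial ribosomal proteins tested had 13 higher and 5 lower with a median of 0.04. Nuclear-encoded subunits of the respiratory chain and ATP synthase, many of which assemble with the products of the mitochondrial ribosome, were closer to the members, with 19 higher and 7 lower of 82 and a median of 0.05. The mRNAs that the mitochondrial ribosome translates were higher in 12 of 13 cases, with a median of 0.27. In the order given, 85.7%, 23.4%, 31.7% and 92.3% of these groups passed in either direction. Over all genes tested 35.5% passed, with 17.1% higher and 18.4% lower. These medians and counts describe the groups, and the differences between groups were not tested.

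The members are scattered over the genome, on 21 chromosomes with at most 8 on any, namely 8 each on chromosomes 1, 2 and 17. In 17 of 78 members (21.8%) a coding gene on the other strand started at most 1000 bases upstream of the member's start. Of 19951 coding genes 7.38% had such a neighbour. Pairs whose spans overlap at their starts, as with MRPL43 and TWNK, were not counted. Among those counted, MRPS11 and MRPL46 are neighbours of each other, their starts 34 bases apart, and neither passed the test. In 16 of the 17 members both genes could be tested.

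A neighbour did not always move with the member. In the 16 members whose neighbour was also tested, 6 neighbours passed the FDR threshold, where 35.5% of all genes tested did. Of the 4 members that passed and had a neighbour, 2 had one that passed, 1 of them in the same direction. Those 4 members and MRPS34 are described here. MRPL36 rose while NDUFS6, a respiratory chain subunit starting 34 bases away, had a log2 fold change of −0.13 (FDR 0.0433). MRPL41 rose and so did PNPLA7, 665 bases away (0.40, FDR 2.38e-04). MITD1, 21 bases from MRPL30, had 0.10 (FDR 0.402), and APBA3, 965 bases from MRPL54, had 0.23 (FDR 0.0593) where MRPL54 fell. EME2, 52 bases from MRPS34 with its log2 fold change of −0.01 (FDR 0.812), rose by 0.36 (FDR 5.12e-05).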

How the data were processed

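Messenger RNA from 6 samples of 22Rv1 cells was sequenced, 3 parental and 3 resistant. The organism label reads mouse, but the line and the gene identifiers are human and were treated as such. Per the labels and the study's methods, the authors trimmed reads with fastp, aligned them to hg38 with HISAT2 2.0.5 and assigned them to genes with featureCounts 1.5.0-p3. The deposited values are raw counts per gene, without normalization, beside each gene's position and length. The annotation release and strand setting are not given in the sources used here.

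Counts were filtered with filterByExpr, scaled by TMM (trimmed mean of M values) and tested with edgeR 4.0.16 in R 4.3.3 (quasi-likelihood, resistant against parental, no covariates), with Benjamini-Hochberg adjustment over 17142 genes. CPM used TMM-scaled library sizes, and FPKM divided CPM by the deposited gene length. Standard errors are the log2 fold change divided by the square root of F, and 95% intervals follow from them. The biological coefficient of variation was 3.51%. The procedure was tested on simulated data in which 200 genes were changed by a log2 fold change of 2, up or down. Such changes are far larger than those of the members, so that test does not bear on their calls. Limma 3.58.1 (voom), DESeq2 1.42.0, other scalings, filters and gene sets, a replicate block and leaving out each library served as alternatives.

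The members and gene lists were chosen with earlier results of these data known. Named were all members past both thresholds, up to 10 rises and 10 falls at FDR under 0.05, the 5 highest and 5 lowest by FPKM, untested members, the MRPS18 paralogs, MRPS30 and MRPS36. In other lists up to 3 genes at FDR under 0.05 were named in each direction, and TUFM, overlapping genes and neighbours were named after their values were seen. Counting intervals cover counting error only. No human genome sequence was used here.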

Additional observations from a re-analysis of the deposited data

How the results depend on the processing

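Of the summary results, 182 of 214 recomputed values stayed within a fixed limit of the main value. That limit was loose for counts, as 18 higher members against 13 were within it (protein-coding genes only). Of the single-gene values, 521 of 583 kept their side of the FDR threshold, whatever the size of change. A change of sign in a gene that did not pass counted as kept, and no gene that passed changed sign. With DESeq2 the count of higher members was 7 in place of 13. In either direction, 14.3% of members and 28.2% of all genes tested passed with DESeq2. With protein-coding genes only the shares were 28.6% and 42.3%, and in the main fit 23.4% and 35.5%. The GADD45GIP1 call was lost with DESeq2 and without a filter on low counts, which left 0 lower genes among mitoribosomal proteins with other names. For mitochondrial transcription, DESeq2 and no filter gave 0 higher and 0 lower genes, and fitting protein-coding genes only gave 2 higher and 0 lower. The median log2 fold change of all members, MRPL and MRPS genes was 0.0242, 0.0191 and 0.0356 with library size alone and 0.0541, 0.0487 and 0.0653 with protein-coding genes only. The resistant minus parental share of counts, 0.00306, 0.00167 and 0.00139 percentage points for all members, MRPL and MRPS genes, was 0.0103, 0.00602 and 0.0043 on counts of nuclear coding genes. The cause of these shifts was not tested, beyond the changed sets of genes or counts.

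Leaving out 1 library gave 8 to 11 higher and 4 to 7 lower members, 0 to 1 lower genes with other names, 2 to 4 higher translation factors, and 0 to 1 higher and 0 to 1 lower transcription genes. In these fits 16.9% to 20.8% of members passed in either direction, and 29.6% to 31.8% of all genes tested. The medians ran from 0.0296 to 0.0545 for all members, 0.0236 to 0.0539 for MRPL and 0.038 to 0.0621 for MRPS genes. The deviations of same-numbered libraries correlated at −0.00733, −0.021 and −0.0124, so the replicate numbers showed no pairing in the values. Whether same-numbered samples were handled together was not given in the sources used here. With the replicate number as a block, 11 members were higher and 4 lower with a median of 0.0397. That is 19.5% of members, where 34.3% of all genes tested passed. MRPS28 (FDR 0.0700) and MRPS22 (FDR 0.0541) were among the calls lost. At this depth, changes of MRPL38, MRPL53 and MRPS28 are limited by standard errors of 0.199, 0.172 and 0.134.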
